A study of Mus musculus with 12 samples.

Results

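The enzymes that build and break down heme were followed in mouse liver across conception route and Atf7 genotype. The genes were listed by name: Alas1, Alad, Uros, Urod, Cpox, Ppox and Fech for synthesis, and Hmox1 and Blvrb for breakdown. All 9 had 1 probe set each that the platform annotation gave to that gene alone, so 9 of 34760 probe sets and 9 of 19937 named genes are described. Alas1 was chosen by its lower log2 values in WT IVF livers than in WT natural mating livers, and the other 8 genes as parts of its pathway. All values of that comparison are therefore given as a description with no test.

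Livers came from 12 male mice on a C57BL6/JJmsSlc background, recorded as 4 weeks old in the sample records (the article gives a younger age), and each liver was read on its own array. There were 4 groups of 3 mice: Atf7-/- mice born after IVF, naturally conceived Atf7-/- mice (called Atf7-/- natural mating), WT mice born after IVF and naturally conceived WT mice (WT natural mating). IVF eggs came from superovulated females and were fertilised and cultured in HTF medium, and the 2-cell embryos were transferred to pseudopregnant ICR females, so IVF differs from natural mating in every one of these steps at once. The Atf7-/- mice lack ATF7 in the whole body. The mice of a group were born to different females, recipients in the case of IVF, while the eggs of several donors were pooled for IVF. Both parents had the genotype of their offspring. Naturally conceived Atf7-/- mice were thus carried by Atf7-/- females and WT mice by WT females, while ICR females carried the IVF mice of both genotypes. In natural mating, the genotype of the offspring and that of the mother cannot be told apart. ATF7 loss below names the comparison of Atf7-/- with WT livers.

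Heme is made in a chain of reactions that starts and ends in mitochondria. ALAS1 performs the first and rate-limiting step in non-erythroid cells, ALAD, UROS and UROD build the ring in the cytosol, and CPOX, PPOX and FECH finish it in mitochondria. In liver, most of the product goes into cytochrome P450 enzymes, and heme itself lowers Alas1 expression. Heme oxygenase 1 (HMOX1) opens the ring, and biliverdin reductases reduce the resulting biliverdin to bilirubin. ATF7 is a bZIP transcription factor of the ATF/CREB family, which binds cyclic AMP response elements.

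Promoter sequences are shown for Alas1, the gene that led to this list, and for Alad and Blvrb, the other genes with a promoter entry that fell with IVF in Atf7-/- livers. Each is the 250 bases before the most upstream start in RefSeq, build GRCm38.p6, read 5′ to 3′ on the gene's strand. Capitals mark TGACG, the core of a cyclic AMP response element (CRE), on either strand, and the E-box CACGTG, which the CLOCK and BMAL1 pair binds.
Alas1, chr9:106247955-106248204, minus strand: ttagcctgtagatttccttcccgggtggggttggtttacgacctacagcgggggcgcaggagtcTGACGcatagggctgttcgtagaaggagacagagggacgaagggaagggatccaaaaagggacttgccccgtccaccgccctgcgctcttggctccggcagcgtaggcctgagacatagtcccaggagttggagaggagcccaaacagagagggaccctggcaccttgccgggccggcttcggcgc
Alad, chr4:62520064-62520313, minus strand: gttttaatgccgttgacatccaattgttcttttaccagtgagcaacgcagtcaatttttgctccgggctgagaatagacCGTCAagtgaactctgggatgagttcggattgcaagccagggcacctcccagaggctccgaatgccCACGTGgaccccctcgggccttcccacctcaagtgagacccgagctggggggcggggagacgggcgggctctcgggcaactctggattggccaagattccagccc
Blvrb, chr7:27447728-27447977, plus strand: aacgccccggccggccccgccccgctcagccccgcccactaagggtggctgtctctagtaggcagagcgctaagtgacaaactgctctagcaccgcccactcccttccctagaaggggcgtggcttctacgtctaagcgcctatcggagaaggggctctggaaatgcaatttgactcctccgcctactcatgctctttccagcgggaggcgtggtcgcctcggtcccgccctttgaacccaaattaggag

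RefSeq windows of 250 bases before to 50 bases after a start were searched on both strands for 5 motifs. The listed genes had 11 such windows, for 7 of the 9 genes. Windows of Hmox1 and Fech were not used here. The full CRE TGACGTCA, which contains this core, was in 0 of the 11 windows and in 1.79% of all 32851 windows. The core TGACG was in 5 of the 11 windows, against 20.8% of all windows, once each for Alas1, Alad, Cpox and Ppox and in 2 copies for Uros. In Alas1 it began 186 bases before the first start (position -186), and in Alad at -171. The E-box CACGTG was in 4 windows of Alad, Urod and Uros (7.15% of all windows). In Alad it lay at -105 of the first start and again at -28 of the second start, which is 154 bases downstream.

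The palindrome CGCATGCG, the core of sites for nuclear respiratory factor 1 (NRF1), was in both Alas1 windows and in 1.87% of all windows. It began at position 31 after the first Alas1 start, and the same site lay at -194 of the second start, 224 bases downstream. The core AGGTCA of sites for the REV-ERB and ROR receptors was in 0 of the 11 windows (16.3% of all windows). These matches describe letters only.

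**Figure D1:**
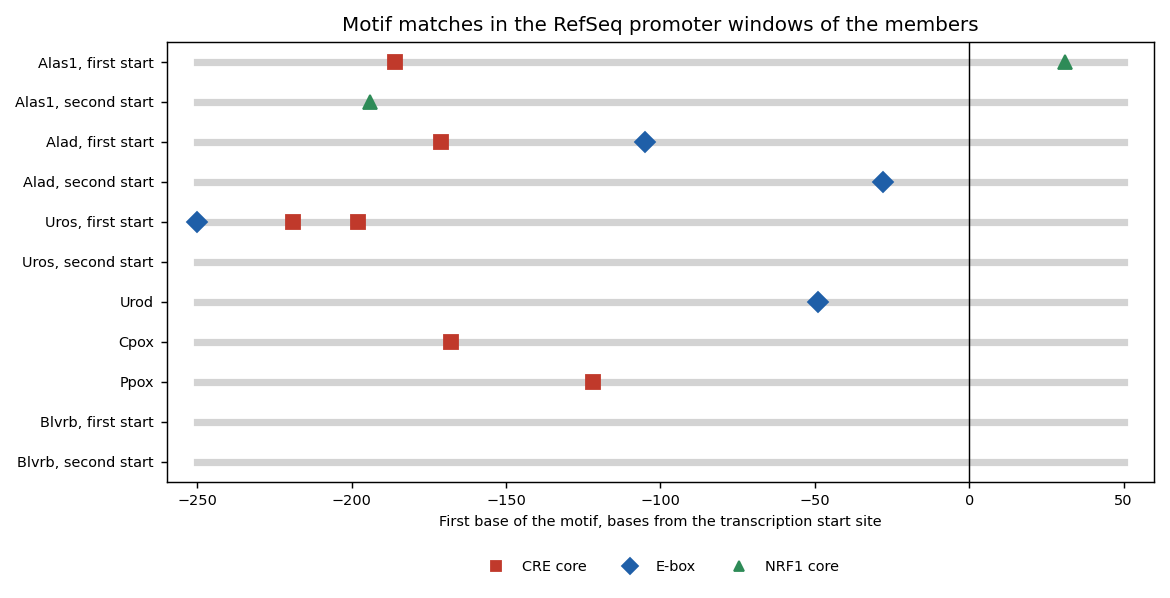
Motif matches in the RefSeq promoter windows of 7 heme genes, with the distance of each motif's first base from the transcription start on the horizontal axis in bases and one grey bar for each of the 11 windows. Alas1 carries a CRE core at -186 and the NRF1 core at position 31 of its first start, Alad carries a CRE core at -171 and an E-box at -105, and no motif was found in the Blvrb windows.

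Of 2 Atf7 probe sets, 1 was clearly low in the libraries labelled Atf7-/-. It averaged 5.52 ± 0.17 in Atf7-/- IVF livers and 8.04 ± 0.43 in WT IVF livers, and 5.96 ± 0.14 in Atf7-/- natural mating livers against 8.78 ± 0.18 in WT natural mating livers (log2 scale, SD, n = 3 each). The other differed little, by -0.34 with ATF7 loss in natural mating (limma adjusted p = 0.0758) and -0.39 in IVF (0.721), and was not called. Where either lies relative to the deleted part was not checked here. Array medians ran between 6.22 and 6.34, and arrays of a group correlated at 0.980 to 0.990 over all probe sets. Albumin (Alb), a defining hepatocyte marker, read 13.68 to 14.05 on every array. In bulk liver, fewer cells of a type and less RNA per cell cannot be told apart. All values below are log2 expression values, and levels of different probe sets were not compared.

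Alas1 was low in both IVF groups. The arrays read 10.12, 9.86 and 10.00 in Atf7-/- IVF livers, 10.93, 11.28 and 11.66 in Atf7-/- natural mating livers, 9.23, 10.16 and 9.25 in WT IVF livers, and 11.38, 11.56 and 12.35 in WT natural mating livers. Every IVF array was below every natural mating array, whatever the genotype. The means were 9.99 ± 0.13 in Atf7-/- IVF, 11.29 ± 0.36 in Atf7-/- natural mating, 9.55 ± 0.53 in WT IVF and 11.76 ± 0.52 in WT natural mating livers (SD, n = 3 each), so that WT natural mating was highest and WT IVF lowest. The ranges of the 2 natural mating groups overlapped, and so did those of the 2 IVF groups.

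The comparison of Atf7-/- IVF with Atf7-/- natural mating livers has no array in either mean from the one that led to Alas1. Its spread was estimated over all 12 arrays, however, and the genes were chosen with earlier results of these data known. With IVF in Atf7-/- livers Alas1 fell by 1.30 on the log2 scale (SE 0.30, 95% interval -1.96 to -0.64), to 40.6% of its level in natural mating. The adjusted p was 0.0158 in limma over all probe sets. A gene was called when its adjusted p was at most 0.05 and its log2 fold change at least 0.6 in size. The Alas1 call was lost without Atf7-/- IVF replicate 2 (-1.23, adjusted p = 0.0538), without Atf7-/- IVF replicate 3 (-1.30, 0.0524) and without Atf7-/- natural mating replicate 3 (-1.12, 0.0635), while the direction stayed. In WT livers the difference was -2.21, which is 21.6% of the natural mating level. The IVF effect in Atf7-/- livers minus that in WT livers was 0.91, and ATF7 loss went with -0.47 in natural mating and 0.45 in IVF. These 4 values are descriptions.

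**Figure D2:**
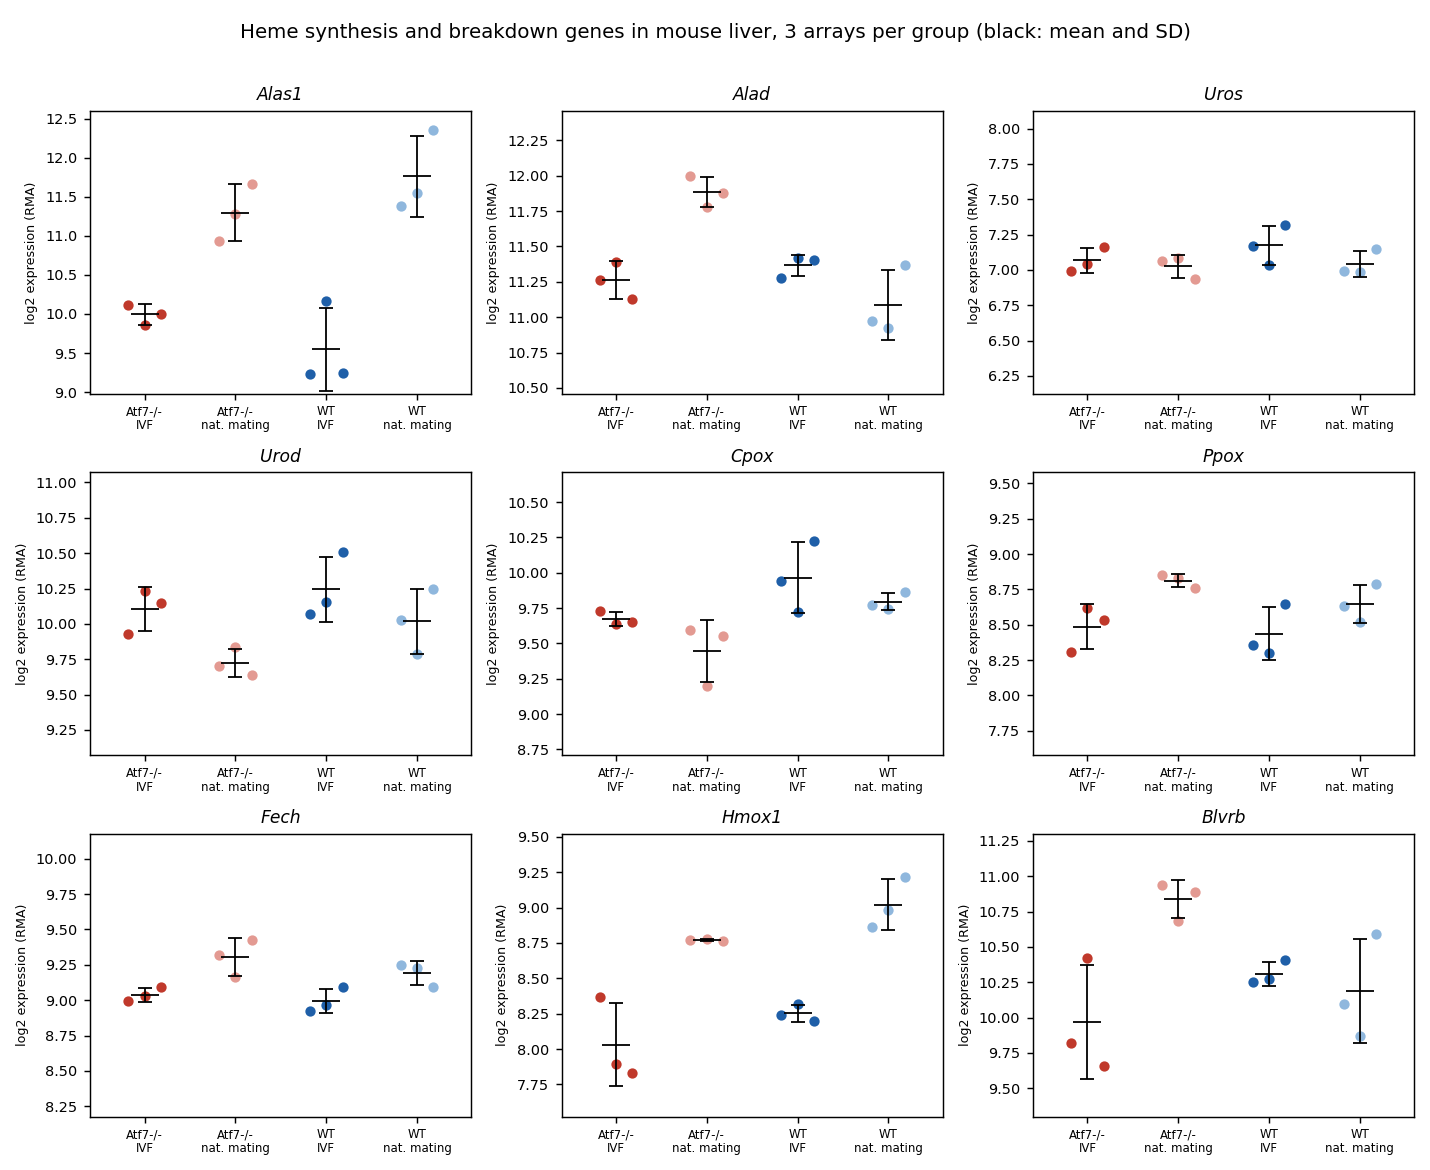
Log2 expression of the 9 heme genes on each of 12 arrays, with the 4 groups on the horizontal axis, 3 points per group and black lines for the mean and SD (vertical ranges differ between genes). Alas1 and Hmox1 lie lower in both IVF groups, and Alad is highest in Atf7-/- natural mating livers at 11.88 ± 0.11.

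Alad, whose product joins 2 molecules of aminolevulinic acid, followed another pattern. It read 11.27, 11.39 and 11.13 in Atf7-/- IVF livers, 11.995, 11.78 and 11.88 in Atf7-/- natural mating livers, 11.28, 11.42 and 11.40 in WT IVF livers, and 10.97, 10.92 and 11.37 in WT natural mating livers. Only the Atf7-/- natural mating group stood apart, with all 3 arrays above the other 9. The means were 11.26 in Atf7-/- IVF, 11.88 in Atf7-/- natural mating, 11.37 in WT IVF and 11.09 in WT natural mating livers, and the ranges of the 3 lower groups overlapped one another.

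With IVF in Atf7-/- livers Alad fell by 0.62 (SE 0.13, 95% interval -0.90 to -0.34, limma adjusted p = 0.00855). That value is near the minimum fold. The call was lost without Atf7-/- IVF replicate 3 (-0.56, adjusted p = 0.0409), without Atf7-/- natural mating replicate 1 (-0.57, 0.0394) and after a further quantile normalization (-0.60, 0.0128). ATF7 loss in natural mating raised Alad by 0.80 (SE 0.13, 95% interval 0.52 to 1.08, limma adjusted p = 0.0021). This call held without each of the 6 arrays, at adjusted p of up to 0.0117. Both comparisons use the same Atf7-/- natural mating arrays and are not independent. Between the IVF groups, Atf7-/- minus WT was -0.10 (adjusted p = 0.934), with an interval of -0.38 to 0.17. In WT livers the IVF difference was 0.28, and the 2 IVF effects differed by -0.90.

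The next 3 enzymes passed the test in no comparison made. Uros, which closes the ring, lay between 6.93 and 7.32 on all 12 arrays, and its group means between 7.03 and 7.17. Its IVF effect in Atf7-/- livers was 0.041 (95% interval -0.17 to 0.26), so a change of 0.6 lies outside the interval. Urod, which removes 4 carboxyl groups from uroporphyrinogen, read 9.93, 10.23 and 10.15 in Atf7-/- IVF livers and 9.70, 9.84 and 9.64 in Atf7-/- natural mating livers. These groups did not overlap, with a difference of 0.38 (interval 0.055 to 0.70, limma adjusted p = 0.125). In WT livers Urod read 10.07, 10.16 and 10.51 after IVF and 10.03, 9.78 and 10.24 after natural mating, and those groups overlapped.

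Cpox, a mitochondrial oxidase of the intermembrane space, read 9.73, 9.63 and 9.65 in Atf7-/- IVF livers and 9.60, 9.20 and 9.55 in Atf7-/- natural mating livers. The difference was 0.22 (interval -0.078 to 0.52, limma adjusted p = 0.352). The WT arrays read 9.94, 9.72 and 10.22 after IVF and 9.77, 9.75 and 9.86 after natural mating. ATF7 loss in natural mating gave -0.35 for Cpox (interval -0.65 to -0.045, adjusted p = 0.13), with all Atf7-/- arrays below all WT arrays, and for Urod -0.29 (interval -0.62 to 0.030, adjusted p = 0.237).

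The last 2 enzymes of the chain leaned the other way from Urod and Cpox in Atf7-/- livers, without passing the test. Ppox, which oxidises protoporphyrinogen, read 8.31, 8.62 and 8.53 in Atf7-/- IVF livers and 8.85, 8.83 and 8.76 in Atf7-/- natural mating livers. Its IVF effect was -0.33 (interval -0.59 to -0.064, limma adjusted p = 0.104). Fech, which inserts the iron, read 8.99, 9.03 and 9.09 in Atf7-/- IVF livers and 9.32, 9.17 and 9.43 in Atf7-/- natural mating livers. Its effect was -0.27 (interval -0.47 to -0.061, limma adjusted p = 0.0897). In WT livers the differences were -0.21 for Ppox and -0.20 for Fech. With ATF7 loss in natural mating, Ppox gave 0.16 (adjusted p = 0.434) and Fech 0.11 (adjusted p = 0.497).

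Hmox1, the inducible heme oxygenase, was lower after IVF in both genotypes. Its arrays read 8.37, 7.90 and 7.83 in Atf7-/- IVF livers, 8.77, 8.78 and 8.76 in Atf7-/- natural mating livers, 8.24, 8.32 and 8.20 in WT IVF livers, and 8.87, 8.98 and 9.22 in WT natural mating livers. As for Alas1, no IVF array reached any natural mating array. The Atf7-/- natural mating arrays of Hmox1 (8.77 ± 0.0088) all lay below those of WT natural mating (9.02 ± 0.18), and the 2 IVF groups (8.03 ± 0.29 in Atf7-/-, 8.25 ± 0.060 in WT) overlapped.

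In Atf7-/- livers IVF lowered Hmox1 by 0.74 on the log2 scale, to 59.9% (SE 0.14, 95% interval -1.04 to -0.43, limma adjusted p = 0.0057). The call held without each of the 6 arrays, with a range of -0.91 to -0.64 and adjusted p of up to 0.0278. The difference in WT livers was -0.77, or 58.7%, and the 2 IVF effects differed by 0.028 (-0.14 without Atf7-/- IVF replicate 1). ATF7 loss gave -0.25 in natural mating (interval -0.56 to 0.054, adjusted p = 0.288) and -0.22 in IVF (interval -0.53 to 0.083, adjusted p = 0.865), neither of them called.

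Blvrb, a biliverdin and flavin reductase, was lowest in Atf7-/- IVF livers by mean. It read 9.82, 10.42 and 9.66 in Atf7-/- IVF livers, 10.94, 10.68 and 10.89 in Atf7-/- natural mating livers, 10.25, 10.27 and 10.41 in WT IVF livers, and 10.10, 9.87 and 10.59 in WT natural mating livers. The Atf7-/- natural mating arrays were above the other 9, and the other 3 groups overlapped. With IVF in Atf7-/- livers Blvrb fell by 0.87, to 54.8% (SE 0.21, 95% interval -1.33 to -0.41, limma adjusted p = 0.0195). The call was lost without Atf7-/- IVF replicate 1 (-0.80, adjusted p = 0.0583), Atf7-/- IVF replicate 3 (-0.71, 0.083), Atf7-/- natural mating replicate 1 (-0.82, 0.0691) or Atf7-/- natural mating replicate 3 (-0.84, 0.0622).

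In natural mating, ATF7 loss gave 0.65 for Blvrb (interval 0.19 to 1.11, limma adjusted p = 0.0643), which was not called. Leaving out replicate 3 of WT natural mating, the highest of its group, gave 0.85 (adjusted p = 0.0191), which was called. In WT livers the IVF difference was 0.12 (-0.035 without WT natural mating replicate 2), and the 2 IVF effects differed by -0.99.

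Over the 9 genes, IVF in Atf7-/- livers lowered 4 (Alas1, Alad, Hmox1 and Blvrb) and raised 0, where limma called 3.51% of all probe sets lower and 3.27% higher. Blvra, which is outside these 9 genes, was called higher there (0.87), and Alas2 and Hmox2, also outside, were not called. At an unadjusted p under 0.05 the count was 7 of 9, against 26.0% of all probe sets. The groups did not overlap for 8 of the 9 genes, 6 lower and 2 higher, against 16.2% of all probe sets lower and 16.0% higher. The median log2 fold change of the 9 genes was -0.33, and that of all probe sets 0.0057. In WT livers, where the choice of Alas1 fixed its place, Alas1 and Hmox1 lay beyond both thresholds as lower (1.67% of all probe sets), and Alas1, Fech and Hmox1 had groups without overlap (15.4%). Higher expression there held for 0 of the 9 genes (2.85% of all probe sets were called higher, and 14.0% were higher without overlap). Nothing is read from these counts, since the comparison led to the list.

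ATF7 loss in natural mating raised 1 gene (Alad) and lowered 0 of the 8 tested, with 3.83% of all probe sets called higher and 3.67% lower. At an unadjusted p under 0.05 the count was 3 of 8 (Alad, Cpox and Blvrb), against 26.6% of all probe sets. Groups did not overlap for 4 of the 9 genes, Alad and Blvrb higher and Cpox and Hmox1 lower, where 15.5% of all probe sets were higher and 16.3% lower. Between Atf7-/- IVF and WT IVF livers limma called 0 of 8 genes, and 0 at an unadjusted p under 0.05, against 6.12% of all probe sets. It called 0.00575% of all probe sets there, 2 of 34760 and both lower. No gene of the 9 had groups without overlap in that comparison (5.78% of all probe sets were higher and 5.09% lower without overlap), and the median was -0.11, against 0.0073 for all probe sets. The WT natural mating and WT IVF arrays of these comparisons are those that led to Alas1.

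**Figure D3:**
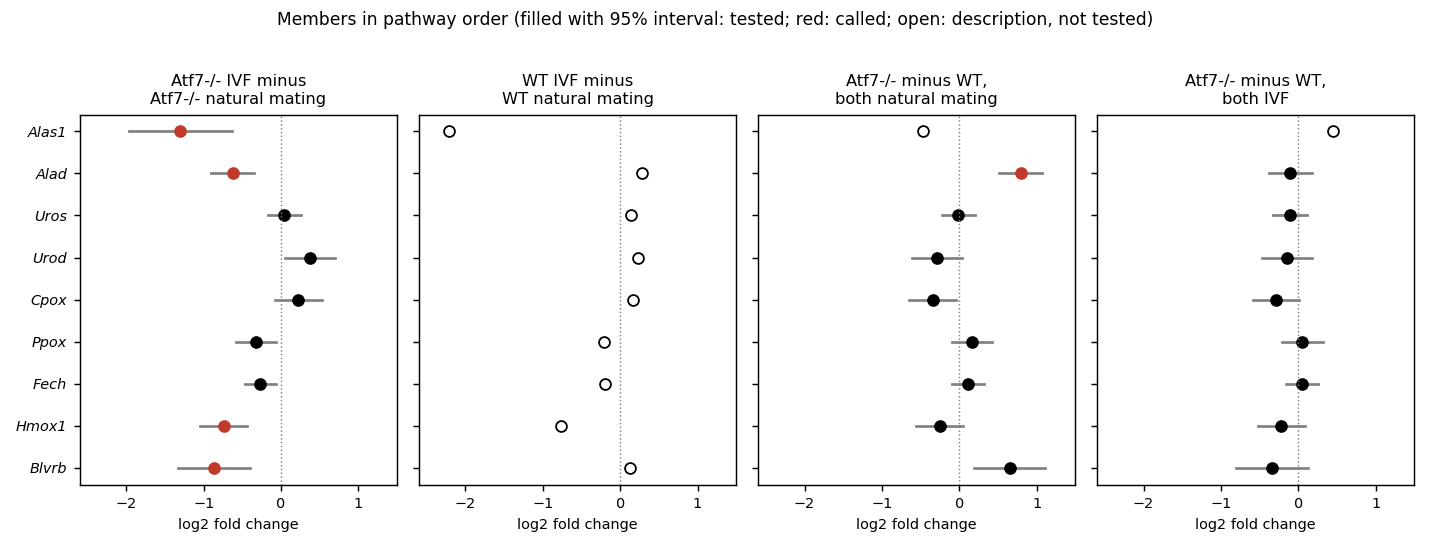
Log2 fold changes of the 9 heme genes, in pathway order from top to bottom, for 4 comparisons. Filled points with bars are tested estimates with 95% intervals, red ones were called, and open points are descriptions. In Atf7-/- livers Alas1 (-1.30), Alad (-0.62), Hmox1 (-0.74) and Blvrb (-0.87) fell with IVF, and Alad rose by 0.80 with ATF7 loss in natural mating.

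The isoenzymes of the listed genes were read as well. Alas2, the erythroid form of the first enzyme, was not called. Its arrays read 8.44, 8.44 and 8.38 in Atf7-/- IVF livers and 8.28, 7.82 and 8.45 in Atf7-/- natural mating livers, a difference of 0.23 (95% interval -0.49 to 0.95, limma adjusted p = 0.733). WT arrays read 8.64, 9.16 and 8.57 after IVF and 7.79, 7.69 and 9.12 after natural mating. Hmox2, the constitutive heme oxygenase, gave -0.16 with IVF in Atf7-/- livers (interval -0.40 to 0.078, adjusted p = 0.405). With ATF7 loss in natural mating it gave 0.49 (adjusted p = 0.0132), under the minimum fold.

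Blvra, the biliverdin reductase of adult bile pigment, was lowest in Atf7-/- natural mating livers, where Blvrb was highest. Its values were 7.69, 7.76 and 7.52 in Atf7-/- IVF livers and 6.75, 6.81 and 6.79 in Atf7-/- natural mating livers, with 7.76, 7.68 and 7.62 in WT IVF livers and 7.12, 7.45 and 7.54 in WT natural mating livers. All 3 Atf7-/- natural mating arrays lay below the other 9. IVF raised Blvra in Atf7-/- livers by 0.87 (SE 0.11, 95% interval 0.62 to 1.12, limma adjusted p = 0.000919), and the call held without each of the 6 arrays. ATF7 loss in natural mating gave -0.59 (adjusted p = 0.00624), just under the minimum fold. These comparisons share the Atf7-/- natural mating arrays.

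Of 18 genes listed for heme and porphyrin transport and for the mitochondrial steps around them, 16 were measured, and IVF in Atf7-/- livers raised 2 and lowered 3. There 3.27% of all probe sets were called higher and 3.51% lower. The median of the transport genes was -0.074, against 0.0057 for all probe sets. Clpx, a mitochondrial unfoldase that acts on ALAS proteins, read 10.24, 10.54 and 10.52 in Atf7-/- IVF livers and 9.37, 8.84 and 9.37 in Atf7-/- natural mating livers, and rose by 1.24 (SE 0.19, limma adjusted p = 0.00206). In WT livers it read 10.38, 10.11 and 10.51 after IVF and 9.05, 8.95 and 8.47 after natural mating, a difference of 1.51 that was not tested. Its 2 IVF groups were above both natural mating groups on every array.

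Tmem14c, a mitochondrial protein needed for protoporphyrinogen import in erythroid cells, was lowest in Atf7-/- natural mating livers. It read 9.96, 9.80 and 9.70 in Atf7-/- IVF livers and 8.90, 9.03 and 8.83 in Atf7-/- natural mating livers, a rise of 0.90 (SE 0.092, limma adjusted p = 0.000303). The WT arrays read 9.81, 9.78 and 9.87 after IVF and 10.05, 10.05 and 10.16 after natural mating, and ATF7 loss in natural mating lowered it by 1.16 (limma adjusted p = 4.48e-05). Slc48a1, a heme exporter of lysosomes, fell by 1.06 with IVF in Atf7-/- livers (adjusted p = 0.000609) and rose by 0.80 with ATF7 loss in natural mating (adjusted p = 0.00223). Slc46a1, a folate carrier that also takes up heme, fell by 0.79 (adjusted p = 0.00271) and rose by 0.83 (adjusted p = 0.00172) in the same comparisons, which share the Atf7-/- natural mating arrays. For these 3 genes the calls held without each array.

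Slc25a39, a mitochondrial carrier for glutathione, fell by 0.71 with IVF in Atf7-/- livers (limma adjusted p = 0.0218). The call was lost without each of 5 of the 6 arrays, Atf7-/- IVF replicate 1 being the exception, with adjusted p of up to 0.0775. Slc25a37, or mitoferrin 1, fell by 0.81 with ATF7 loss in natural mating (adjusted p = 0.00209). In that comparison 2 transport genes were higher and 2 lower, with 3.83% of all probe sets called higher and 3.67% lower. None of the 5 genes that scavenge heme and hemoglobin was called by limma in Atf7-/- livers or with ATF7 loss in natural mating. At an unadjusted p under 0.05 there were 1 (Hp, haptoglobin, 0.43 with adjusted p = 0.0414, under the minimum fold) and 0.

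**Figure D4:**
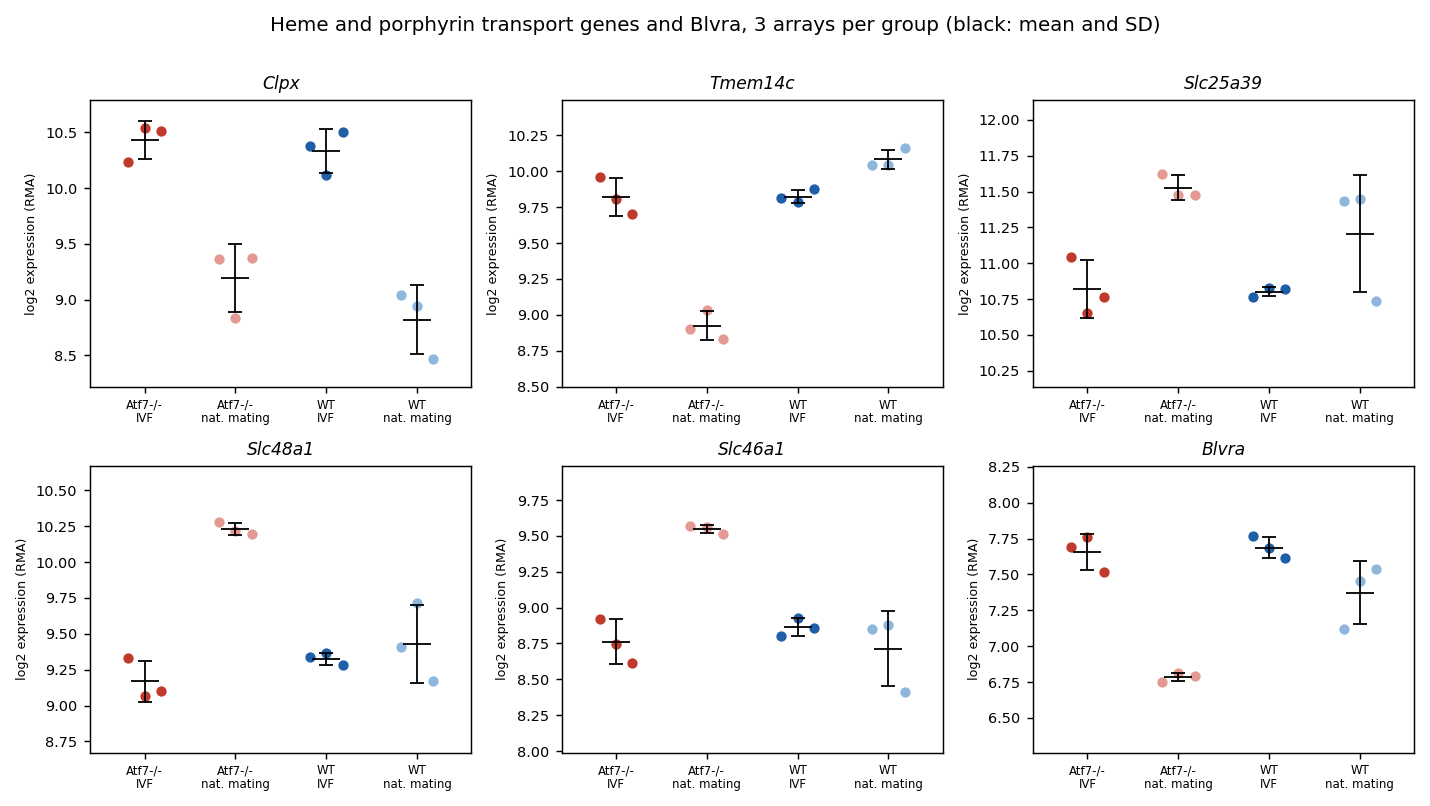
Log2 expression of 5 transport and mitochondrial partner genes and of Blvra on each array, with the 4 groups on the horizontal axis and black lines for the mean and SD of 3 arrays. Clpx is high in both IVF groups, while Slc48a1 and Slc46a1 are highest and Tmem14c and Blvra lowest in Atf7-/- natural mating livers.

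Among 17 known regulators of Alas1 and Hmox1, IVF in Atf7-/- livers raised 1 (Arntl) and lowered 6 (Dbp, Nr1d1, Hnf4a, Foxo1, Nfe2l2 and Hlf). There 3.27% of all probe sets were called higher and 3.51% lower. The median was -0.36 over 18 probe sets, against 0.0057 for all probe sets. Nr1d1, the clock repressor REV-ERB alpha whose ligand is heme, read 9.47, 8.75 and 9.02 in Atf7-/- IVF livers and 11.07, 10.75 and 10.49 in Atf7-/- natural mating livers, a fall of 1.69 (SE 0.28, limma adjusted p = 0.00305). In WT livers it read 8.91, 9.47 and 8.71 after IVF and 10.58, 9.90 and 9.63 after natural mating. Dbp, a clock output factor that activates Alas1 in mouse liver, fell by 1.96 (SE 0.33, adjusted p = 0.00325). Arntl, which encodes BMAL1, read 8.36, 8.46 and 8.53 in Atf7-/- IVF livers and 6.76, 6.45 and 7.17 in Atf7-/- natural mating livers and rose by 1.66 (SE 0.18, adjusted p = 0.00036).

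In WT livers 2 regulators were past both thresholds as higher (Arntl, 2.23, and Clock, 0.88) and 7 as lower, led by Dbp (-2.28), Per2 (-1.48) and Tef (-1.31), as a description. Of all probe sets, 2.85% were called higher and 1.67% lower there. The time of day at which livers were taken is not given in the sources used here. Arntl, Dbp and Nr1d1 differed between IVF and natural mating in both genotypes, as Alas1 and Hmox1 did, while Clock, Nr1d2, Per2 and Tef were not called in Atf7-/- livers. Of these, Per2 and Tef had an unadjusted p under 0.05 in limma there. Per2 averaged 7.50 ± 0.074 in Atf7-/- IVF livers and 8.06 ± 0.16 in Atf7-/- natural mating livers, without overlap. The part of these regulators in the heme gene differences was not tested.

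Hnf4a, a liver factor that binds the Alas1 promoter, fell by 0.76 with IVF in Atf7-/- livers (limma adjusted p = 0.00252) and rose by 0.68 with ATF7 loss in natural mating (adjusted p = 0.0039). The second call was lost without WT natural mating replicate 3 (0.53, adjusted p = 0.0042). Foxo1, which acts with PGC-1 alpha on Alas1 in fasting, fell by 0.73 (adjusted p = 0.0014) and rose by 0.62 (adjusted p = 0.00291) in these comparisons. For Hnf4a and Foxo1 alike, the fall and the rise share the Atf7-/- natural mating arrays and are not independent. The rise of Foxo1 was under the minimum fold without Atf7-/- natural mating replicate 3 (0.55) or WT natural mating replicate 3 (0.57), with array weights (0.59) and after a further quantile normalization (0.57). Nfe2l2, which encodes the HMOX1 activator NRF2, fell by 0.68 with IVF in Atf7-/- livers (adjusted p = 0.0033), but by less than the minimum fold without Atf7-/- IVF replicate 1 (-0.57). Hlf fell by 0.61 (adjusted p = 0.00438) and dropped under the minimum fold without any 1 of 4 arrays (Atf7-/- IVF replicates 2 and 3, Atf7-/- natural mating replicates 1 and 2) or after a further quantile normalization (-0.57).

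Ppargc1a, which encodes PGC-1 alpha, had 2 probe sets that disagreed. With ATF7 loss in natural mating one gave 0.76 (limma adjusted p = 0.00731), called, and the other 0.20 (adjusted p = 0.73). With IVF in Atf7-/- livers they gave -0.56 (adjusted p = 0.0328), under the minimum fold, and 0.16 (adjusted p = 0.803). Bach1, the heme-sensing repressor of Hmox1, read 8.42, 8.27 and 8.30 in Atf7-/- IVF livers, 8.43, 8.32 and 8.27 in Atf7-/- natural mating livers, 8.26, 8.35 and 8.33 in WT IVF livers, and 9.59, 9.30 and 8.61 in WT natural mating livers. Only the WT natural mating group stood apart. The IVF effect on Bach1 in Atf7-/- livers was -0.0069 (interval -0.43 to 0.42), and ATF7 loss in natural mating lowered it by 0.83 (adjusted p = 0.0158). That call was lost without Atf7-/- natural mating replicate 2 (-0.82, adjusted p = 0.0501), Atf7-/- natural mating replicate 3 (-0.79, 0.0577) or WT natural mating replicate 2 (-0.76, 0.0585), and with only these 2 groups fitted (adjusted p = 0.0815).

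In all, ATF7 loss in natural mating raised 5 regulators (Ppargc1a, Foxo1, Hnf4a, Arntl and Clock) and lowered 5 (Nr1i3, Nr1d2, Per2, Tef and Bach1). Of all probe sets, 3.83% were called higher and 3.67% lower in that comparison. Clock rose by 0.90 (limma adjusted p = 0.000405) and Per2 fell by 0.92 (adjusted p = 0.00201), and both calls held without each array. Nr1i3, the xenobiotic receptor CAR, fell by 0.95 (adjusted p = 0.0228), and leaving out Atf7-/- natural mating replicate 2 (-0.69, adjusted p = 0.0689) or replicate 1 of WT natural mating (-0.75, 0.077) ended the call, as did fitting only these 2 groups (adjusted p = 0.079). Leaving out 1 array also ended the calls of Nr1d2 (Atf7-/- natural mating replicate 3, WT natural mating replicates 1 or 2, adjusted p of up to 0.0769), of Arntl (replicates 1 or 3 of Atf7-/- natural mating, 1 or 2 of WT natural mating, up to 0.0958) and of Tef (Atf7-/- natural mating replicate 3, WT natural mating replicates 1 or 2, up to 0.0835). Those of Nr1d2 (0.0566) and Arntl (0.0933) also ended with only these 2 groups fitted, and median centring left Nr1d2 under the minimum fold (-0.58). Between the IVF groups limma called 0 of 17 regulators, and 0 at an unadjusted p under 0.05, against 6.12% of all probe sets.

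**Figure D5:**
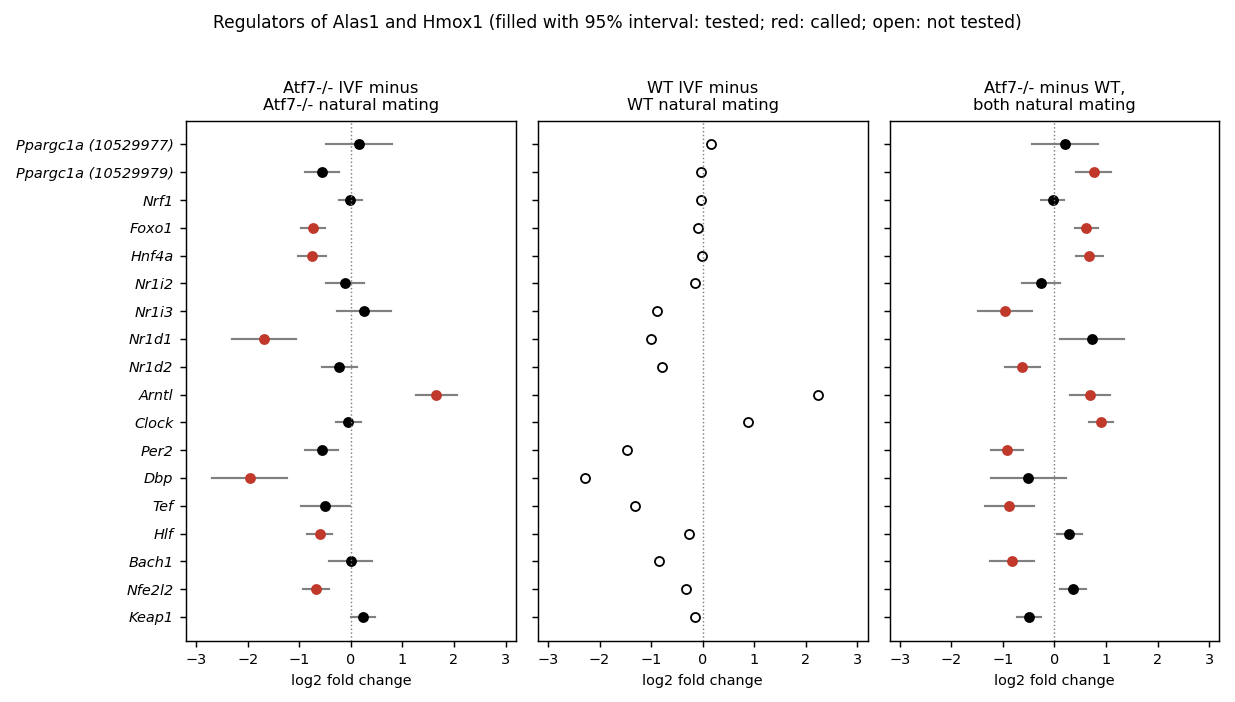
Log2 fold changes of 17 regulators of Alas1 and Hmox1 (18 probe sets, with the 2 of Ppargc1a shown by their identifiers) in 3 comparisons. Filled points with bars are tested estimates with 95% intervals, red ones were called, and open points are descriptions. Dbp (-1.96) and Nr1d1 (-1.69) lie lowest and Arntl (1.66) highest for IVF in Atf7-/- livers.

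The liver enzymes that carry heme came next. Of 17 listed, 16 were measured, and IVF in Atf7-/- livers lowered 3 (3.51% of all probe sets) and raised 0 (3.27%). Their median was -0.30, against 0.0057 for all probe sets. Cyb5b, the cytochrome b5 of the outer mitochondrial membrane, read 10.48, 10.85 and 10.59 in Atf7-/- IVF livers and 11.90, 11.82 and 12.03 in Atf7-/- natural mating livers, and 10.81, 10.98 and 10.79 in WT IVF livers and 10.26, 10.13 and 10.68 in WT natural mating livers. The Atf7-/- natural mating arrays were above all others. It fell by 1.27 with IVF in Atf7-/- livers (SE 0.15, limma adjusted p = 0.000503) and rose by 1.56 with ATF7 loss in natural mating (adjusted p = 0.00012). Both comparisons use the same Atf7-/- natural mating arrays, so the fall and the rise are not independent. Cyp4a14, a fatty acid hydroxylase, fell by 0.93 with IVF in Atf7-/- livers (adjusted p = 0.0093).

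Cyp8b1, which makes the cholic acid branch of bile acids, fell by 0.86 with IVF in Atf7-/- livers (limma adjusted p = 0.0294), a call lost without every array but Atf7-/- IVF replicate 1, at adjusted p of up to 0.106. With ATF7 loss in natural mating, 4 heme enzymes rose (3.83% of all probe sets) and 0 fell (3.67%). The median was 0.17, against -0.019 for all probe sets. Besides Cyb5b the enzymes that rose were Cyp51 (1.48, adjusted p = 0.0303), Cyp8b1 (0.93, adjusted p = 0.0194) and Cyp2c29 (0.72, adjusted p = 0.0059). The fall and the rise of Cyp8b1 share the Atf7-/- natural mating arrays. The call of Cyp51 was lost without Atf7-/- natural mating replicates 2 or 3 or WT natural mating replicates 1 or 2 (adjusted p of up to 0.105), and that of Cyp8b1 without Atf7-/- natural mating replicate 1 or WT natural mating replicates 2 or 3 (up to 0.0757). In WT livers 1 heme enzyme was past both thresholds, Cyp7a1, which starts the making of bile acids from cholesterol, at 9.34 ± 1.12 after IVF and 11.59 ± 0.26 after natural mating (SD, n = 3 each), as a description. With IVF in Atf7-/- livers it gave 1.18 (limma adjusted p = 0.224). Between the IVF groups limma called 0 of 16 heme enzymes. At an unadjusted p under 0.05 there were 4 (Cyp7a1, Cyp8b1, Cyp26a1 and Cyp51), against 6.12% of all probe sets. Cyp7a1 averaged 11.39 ± 0.96 in Atf7-/- IVF livers, against the 9.34 ± 1.12 in WT IVF livers.

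Markers of other liver cells moved in part with the groups. Of 19 erythroid genes 10 were measured, none of them a globin, and only the transferrin receptor Tfrc rose with IVF in Atf7-/- livers (1.84, limma adjusted p = 0.00909). Slc4a1, the anion exchanger of red cells, lay between 6.34 and 7.77 on all arrays. The summed erythroid level was 10.38 to 10.56 in Atf7-/- IVF livers, 9.68 to 10.08 in Atf7-/- natural mating livers, 10.19 to 10.88 in WT IVF livers and 9.75 to 10.58 in WT natural mating livers (log2 of the summed linear values). Tfrc, part of this sum, averaged 9.16 ± 0.25 in Atf7-/- IVF livers and 7.32 ± 0.36 in Atf7-/- natural mating livers. In those groups Slc4a1 averaged 6.91 and 6.88, Gata1 5.79 and 5.72, and Alas2 8.42 and 8.18. The median change of the 10 genes was 0.093 there. Of 12 Kupffer cell genes, limma called 0 with IVF in Atf7-/- livers (5 at an unadjusted p under 0.05, against 26.0% of all probe sets). ATF7 loss in natural mating lowered 4 (Marco, Cd5l, Clec4f and C1qa) and raised 1 (Vsig4), against 3.67% and 3.83% of all probe sets. The summed Kupffer cell level was 13.07 to 13.25 in Atf7-/- natural mating livers against 13.21 to 13.73 in WT natural mating livers.

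The 7 hepatocyte markers had 0 calls by limma in Atf7-/- livers (4 at an unadjusted p under 0.05), and their summed level was 16.34 to 16.42 in Atf7-/- IVF livers and 16.23 to 16.31 in Atf7-/- natural mating livers. Stellate cell markers summed to 13.09 to 13.10 and 12.90 to 12.97 in those 2 groups, with 0 of 8 called (4 at an unadjusted p under 0.05), and with ATF7 loss in natural mating Pdgfrb and Ecm1 rose. For IVF in Atf7-/- livers, 26.0% of all probe sets had an unadjusted p under 0.05. Lymphocyte markers Cd3g and Ms4a1 rose with IVF in Atf7-/- livers (2 of 7, with 3.27% of all probe sets called higher). With ATF7 loss in natural mating Clec4g (1 of its 2 probe sets) rose among 8 sinusoidal endothelial genes and Krt19 among 5 cholangiocyte genes. The other Clec4g probe set averaged 5.19 in Atf7-/- natural mating livers and 5.28 in WT natural mating livers. In that comparison 3.83% of all probe sets were called higher and 3.67% lower. With IVF in WT livers, as a description, Reln and Hgf (stellate cells), Clec4g (1 of its 2 probe sets) and Ms4a1 were past both thresholds as higher, and Cd5l as lower. There 2.85% of all probe sets were called higher and 1.67% lower. Summed levels in WT livers were 12.84 to 13.14 after IVF and 12.35 to 12.66 after natural mating for stellate cells, 12.48 to 12.78 and 12.26 to 12.45 for endothelial cells, and 8.53 to 8.58 and 8.32 to 8.42 for cholangiocytes, with no overlap in these 3 lists. Of single probe sets, 14.0% were higher without overlap there. The Clec4g probe set past the thresholds, part of the endothelial sum, averaged 10.98 after IVF and 10.23 after natural mating. Median changes in WT livers were 0.50 for the stellate, 0.090 for the endothelial and 0.15 for the cholangiocyte probe sets, against -0.036 for all probe sets. The part of these cell types in the heme gene differences was not tested.

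Across the 12 arrays, the genes whose log2 values ran most like Alas1 among 21639 other single-symbol probe sets were Mtss1 (Pearson r = 0.950), Rabl6 (0.945), Atxn7 (0.943), Klc1 (0.932) and Eppk1 (0.928). These r are descriptions, since the 12 arrays fall into 4 groups and Alas1 differs between them. With the group means removed they were 0.760, 0.705, 0.661, 0.616 and 0.807. Mtss1 averaged 9.52 ± 0.053 in Atf7-/- IVF livers and 10.04 ± 0.12 in Atf7-/- natural mating livers, and 9.43 ± 0.23 in WT IVF livers and 10.04 ± 0.12 in WT natural mating livers (SD, n = 3 each). Of the other listed heme genes, Hmox1 ranked highest, at 59 (r = 0.879, and 0.509 with group means removed), followed by Fech (0.647) and Ppox (0.573), while Alad gave 0.136. Uros (-0.51), Urod (-0.51) and Cpox (-0.42) ran against Alas1.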

How the data were processed

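Liver RNA of 12 mice, extracted with TRIzol, was read on Affymetrix Mouse Gene 1.0 ST arrays. The authors applied RMA in affy and deposited the resulting log2 values, 1 per probe set and array, and these were taken as given. RMA makes arrays share 1 distribution of probe intensities, so a change common to most genes would not show. Versions, filters and the build of the probe design: not given in the sources used here.

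Of 34760 probe sets, the platform annotation gave 1 symbol for 21640, several for 1321 and none for 11799. All 9 heme genes matched a RefSeq table (GRCm38.p6) by Entrez identifier, with unchanged symbols. The genes and lists were chosen with earlier results of these data known.

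Values were fitted in limma 3.58.1 (R 4.3.3) with 1 mean per group over all 12 arrays (8 residual degrees of freedom) and empirical Bayes variances. Adjusted p-values are Benjamini-Hochberg over all probe sets, and a call needed at most 0.05 and a log2 fold change of at least 0.6 in size, the thresholds of the article. The steps were tested on simulated data. From each pathway list the called genes were named, at most 4 per comparison by size of change, with Alas2, Hmox2, Blvra, Ppargc1a, Nr1d1 and Bach1 whatever their values. Other regulators, Hp and Tdo2 were named after their values were seen. From the cell type lists, called genes and defining erythroid markers were named. The 5 genes most like Alas1 were taken by Pearson r. Alternatives were other samples in the fit, a replicate block, robust variances with an intensity trend, weights per array, centring of medians, further quantile normalization, a filter at a mean log2 value of 5, single-symbol probe sets, other fold minimums and leaving out each array. Replicates are separate mice, and 3 per group limit the precision. Figures were drawn with matplotlib 3.10.9 in Python 3.11.15.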

Additional observations from a re-analysis of the deposited data

Results flagged for a closer look

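For 4 genes of the pathway and cell type lists, all IVF arrays lay to one side of all natural mating arrays in Atf7-/- livers and to the opposite side in WT livers. Of all probe sets, 16.0% were higher and 16.2% lower without overlap with IVF in Atf7-/- livers, and 14.0% and 15.4% in WT livers. The share of all probe sets with opposite sides in the 2 genotypes was not counted, so nothing is read from the number of these genes. The differences between the IVF effects were not tested. Tmem14c changed by 0.90 in Atf7-/- livers and by -0.26 in WT livers (difference 1.16). Tdo2, the heme enzyme that opens the tryptophan ring, changed by 0.40 and -0.15 (difference 0.55). Cyb5b changed by -1.27 and 0.50 (difference -1.78). Cd5l, a Kupffer cell marker, changed by 0.44 in Atf7-/- livers and by -0.74 in WT livers (difference 1.18).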

How the results depend on the processing

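The fold minimum moved the counts of probe sets in 3 comparisons. With none, 2997 probe sets passed for IVF in WT, 4498 for IVF in Atf7-/- and 4767 for ATF7 loss in natural mating, against 1571, 2356 and 2606 at 0.6, and 436, 706 and 910 at 1. At 1, the heme genes called were 1 for IVF in WT (2 at 0.6), 1 for IVF in Atf7-/- (4) and 0 for ATF7 loss in natural mating (1). The last count was 2, with Blvrb added, with array weights (0.79, adjusted p = 0.0126), median centring (0.70, 0.0489), the filter on dim probe sets (0.65, 0.0443) and single-symbol probe sets (0.65, 0.0347). Among the 21640 single-symbol probe sets, 1528 were called for IVF in Atf7-/- and 1494 for ATF7 loss in natural mating. For ATF7 loss in IVF, the 2 calls became 0 with only the 2 groups fitted and 1 with the filter on dim probe sets. With median centring, IVF in WT gave 1334 higher and 432 lower calls (75.5% higher), against 989 and 582 (63.0%) without it. Leaving out each array gave 2 to 2 heme genes and 998 to 1795 probe sets for IVF in WT, 1 to 4 and 1727 to 2621 for IVF in Atf7-/-, 1 to 2 and 2133 to 2759 for ATF7 loss in natural mating, and 0 to 0 and 2 to 6 for ATF7 loss in IVF. Of the tested values of single genes, only those of Uros and Ppox turned sign. Uros with ATF7 loss in natural mating (-0.013) was 0.0078 with array weights, 0.032 with median centring and 0.019 with quantile normalization, and -0.042 to 0.040 leaving out each array (0.034 without Atf7-/- natural mating replicate 3, 0.040 without WT natural mating replicate 3). Uros with IVF in Atf7-/- (0.041) ran from -0.0077 (without Atf7-/- IVF replicate 3; -0.0061 without Atf7-/- natural mating replicate 3) to 0.078, and Ppox with ATF7 loss in IVF (0.050) ran from -0.017 (without replicate 2 of either group) to 0.16. The causes were not tested. Of 944 tested values of single genes under an alternative, 842 kept sign and call. Of 365 untested ones 9 turned sign, for Blvrb with IVF in WT (0.12, lowest -0.035) and for the differences between IVF effects of Cpox (0.055, lowest -0.071), Hmox1 (0.028, lowest -0.14) and Fech (-0.070, highest 0.021).

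The values gave no sign that replicate numbers pair mice, since only 3 of 18 same-numbered pairs correlated above 0.1 and 5 of 12 arrays correlated best with their own number. Low correlations cannot show that the mice were not paired. A fit with the replicate number as a block called 1494 probe sets and 2 heme genes for IVF in WT, 2345 and 4 for IVF in Atf7-/-, 2587 and 1 for ATF7 loss in natural mating, and 3 and 0 for ATF7 loss in IVF. Each heme gene has 1 probe set, so choosing the brightest gave no other value.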
